A study of Homo sapiens with 11 samples.

Results

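The genes of the sterol regulatory element-binding proteins (SREBPs) and of their lipid-synthesis targets were followed in Reh, an established B-cell precursor leukaemia line with the ETV6-RUNX1 fusion, after transfection of miR-99a, miR-100 or both. The set comprised SREBF1, SREBF2, INSIG1, HMGCS1, SQLE, IDI1, FDFT1 and SCD, chosen by name and not by their values, and each gene was read from its brightest probe set listed with a single gene. Of these 8 genes, 7 were measured among the 19775 genes of the arrays, and FDFT1 was not analysed here. The cells had been infected with virus at 2.5 transducing units per cell to express miR-125b stably, so every group, the control included, carried that microRNA. Into these cells went precursor oligonucleotides of miR-99a at 66 µM (3 arrays), of miR-100 at 66 µM (3 arrays), of miR-99a and miR-100 together at 33 µM each (3 arrays), or of a scrambled control at 66 µM (2 arrays, numbered replicates 1 and 2). A second transfection followed 72 h after the first, and RNA was taken 48 h later. The labels do not name a clone and do not say whether the replicates were separate cultures, so the p-values measure the spread between these arrays, which may be technical. Mature microRNAs were not read from these arrays, so the uptake of the oligos was not checked here. Values are log2 expression. They do not rank genes against each other, because probe sets differ in affinity.

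SREBPs are made as precursors in the membrane of the endoplasmic reticulum, where SCAP and the INSIG proteins hold them while sterols are abundant. When sterols fall, SCAP carries the precursor to the Golgi, proteases free its transcription factor domain, and this domain switches on genes of cholesterol and fatty acid synthesis. The kinase complex mTORC1 promotes this activation, and MTOR messenger RNA is a reported target of the miR-99 family. Because SREBPs are activated by cleavage of the protein, their activity is usually read from their target genes rather than from SREBF1 or SREBF2 RNA.

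The transfected microRNAs are shown because the comparison of miR-100 with miR-99a rests on how little they differ. The mature strands are those of RefSeq (GRCh38.p14), with the seed, bases 2 to 8, in capitals. The labels do not name the strand, and the 5p strand is given. MiR-99a lies at chr21:16539101-16539122 on the plus strand, miR-100 at chr11:122152275-122152296 on the minus strand and miR-125b at chr11:122099809-122099830 on the minus strand. Only the first entry of each name was taken, so any further locus of the same mature strand is not shown.
hsa-miR-99a-5p: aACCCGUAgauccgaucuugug
hsa-miR-100-5p: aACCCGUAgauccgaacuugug
hsa-miR-125b-5p: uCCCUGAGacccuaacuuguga
MiR-99a and miR-100 share the seed ACCCGUA and differ only by U16A (miR-99a base first, position counted from the 5′ end), whereas miR-125b has another seed.

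The arrays numbered replicate 3 stood apart in all treatments, and no control array carries that number. Correlations between arrays were 0.989 to 0.998 over all genes. Comparisons with control are therefore given over all 11 arrays and again over the 8 arrays of replicates 1 and 2. The line's own markers were present, with DNTT, the DNA polymerase of immature lymphocytes, at 12.94 to 13.23 in treated arrays and 13.07 to 13.11 in control, and EBF1, a B-lineage transcription factor, at 11.83 to 12.19 in treated arrays and 11.94 to 12.1 in control. VPREB1, a surrogate light chain gene, was dim at 5.31 to 5.65 in treated arrays and 5.48 to 5.51 in control. The hepatocyte gene ALB, a marker of a tissue rich in lipid synthesis, stood at 5.09 to 5.52 in treated arrays and 5.13 to 5.29 in control.

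Both SREBP genes were expressed, and neither differed from control beyond the test in any treatment. SREBF1, which encodes the form linked mainly to fatty acid synthesis, had 9.72, 9.89 and 9.67 with miR-99a, 9.55, 9.67 and 9.83 with miR-100, 9.59, 9.77 and 9.69 with both, and 9.55 and 9.75 in control. The groups overlapped throughout. In such bulk RNA, less RNA per cell and fewer cells with that RNA cannot be told apart. Against control its log2 differences with miR-99a, miR-100 and the combination were 0.11, 0.04 and 0.03 (SE 0.11 each). SREBF2, which encodes the form linked mainly to cholesterol synthesis, had 7.99, 7.94 and 7.93 with miR-99a, 7.7, 7.89 and 7.94 with miR-100, 7.89, 7.89 and 7.88 with both, and 7.75 and 7.86 in control. All its miR-99a arrays and all its combination arrays lay above both control arrays, while the miR-100 arrays overlapped them. The SREBF2 differences were 0.15 ± 0.08, 0.04 ± 0.08 and 0.08 ± 0.08 (SE), and the 95% interval for miR-99a ran from -0.03 to 0.32.

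INSIG1, the membrane protein that retains SCAP and is itself induced by SREBPs, was bright in every group and did not pass the test against control. It had 12.49, 12.48 and 12.43 with miR-99a, 12.59, 12.56 and 12.37 with miR-100, 12.7, 12.77 and 12.5 with both, and 12.63 and 12.65 in control. All arrays of either single oligo lay below both control arrays, whereas replicates 1 and 2 of the combination lay above them. The differences from control were -0.17 ± 0.09, -0.13 ± 0.09 and 0.02 ± 0.09 (SE). A second INSIG1 probe set, 201627_s_at, had -0.14, -0.23 and -0.06, and the third, 201625_s_at, had 0.08, 0.11 and 0.06, so the probe sets of INSIG1 disagreed in sign.

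HMGCS1, the cytoplasmic synthase that makes HMG-CoA for the mevalonate pathway, had 11.27, 11.18 and 11.46 with miR-99a, 11.16, 11.25 and 11.48 with miR-100, 11.42, 11.35 and 11.46 with both, and 11.4 and 11.45 in control. In replicates 1 and 2 both single oligos lay below both control arrays, but each replicate 3 array lay above them. Over all arrays the differences were -0.12, -0.13 and -0.02 (SE 0.1 each). Over replicates 1 and 2 they were -0.2, -0.22 and -0.04 (SE 0.08), and the adjusted p of 0.422, 0.16 and 0.868 did not pass. A second, dimmer probe set of HMGCS1, 205822_s_at, had -0.2, -0.33 and -0.32 over all arrays, with an adjusted p of 1.0 each.

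IDI1, the isomerase that turns isopentenyl diphosphate into dimethylallyl diphosphate, had 12.1, 12.05 and 11.67 with miR-99a, 11.99, 11.87 and 11.77 with miR-100, 12.12, 12.1 and 11.64 with both, and 11.9 and 12.12 in control. Its low arrays were the replicate 3 arrays, whichever oligo was used. The differences from control were -0.07, -0.13 and -0.05 over all arrays (SE 0.16 each), and 0.07, -0.08 and 0.11 over replicates 1 and 2 (SE 0.09 each), so for miR-99a and the combination the sign rested on replicate 3.

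SQLE, the epoxidase that oxidises squalene on the way to lanosterol, had the largest difference from control of the 7 genes over all arrays, with miR-100. This ranking is for the brightest probe sets and the values as deposited. SQLE had 10.73, 10.71 and 10.64 with miR-99a, 10.54, 10.46 and 10.77 with miR-100, 10.72, 10.76 and 10.79 with both, and 10.84 and 10.77 in control. The miR-99a arrays lay below both control arrays, and the miR-100 arrays of replicates 1 and 2 were the lowest of all. The miR-100 difference was -0.21 ± 0.09 (SE, 95% interval -0.4 to -0.01), with an unadjusted p of 0.0385 and an adjusted p of 1.0 by limma. Over replicates 1 and 2 it was -0.3 ± 0.08, with an adjusted p of 0.106. Over all arrays it was -0.13 after quantile normalization (95% interval -0.35 to 0.1). With the probe sets averaged it was -0.17 (-0.39 to 0.05). The other probe sets of SQLE had -0.1, -0.17 and -0.21 for miR-100 over all arrays.

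SCD, the desaturase that makes oleic and palmitoleic acid, was dim, with a mean of 5.93 against 6.4 for the median gene. It had 5.88, 5.91 and 5.9 with miR-99a, 6.02, 5.98 and 5.83 with miR-100, 5.91, 5.87 and 6.03 with both, and 6.06 and 5.84 in control. The control arrays spanned all the treated arrays but the lowest, so no difference could be read at this level.

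**Figure D1:**
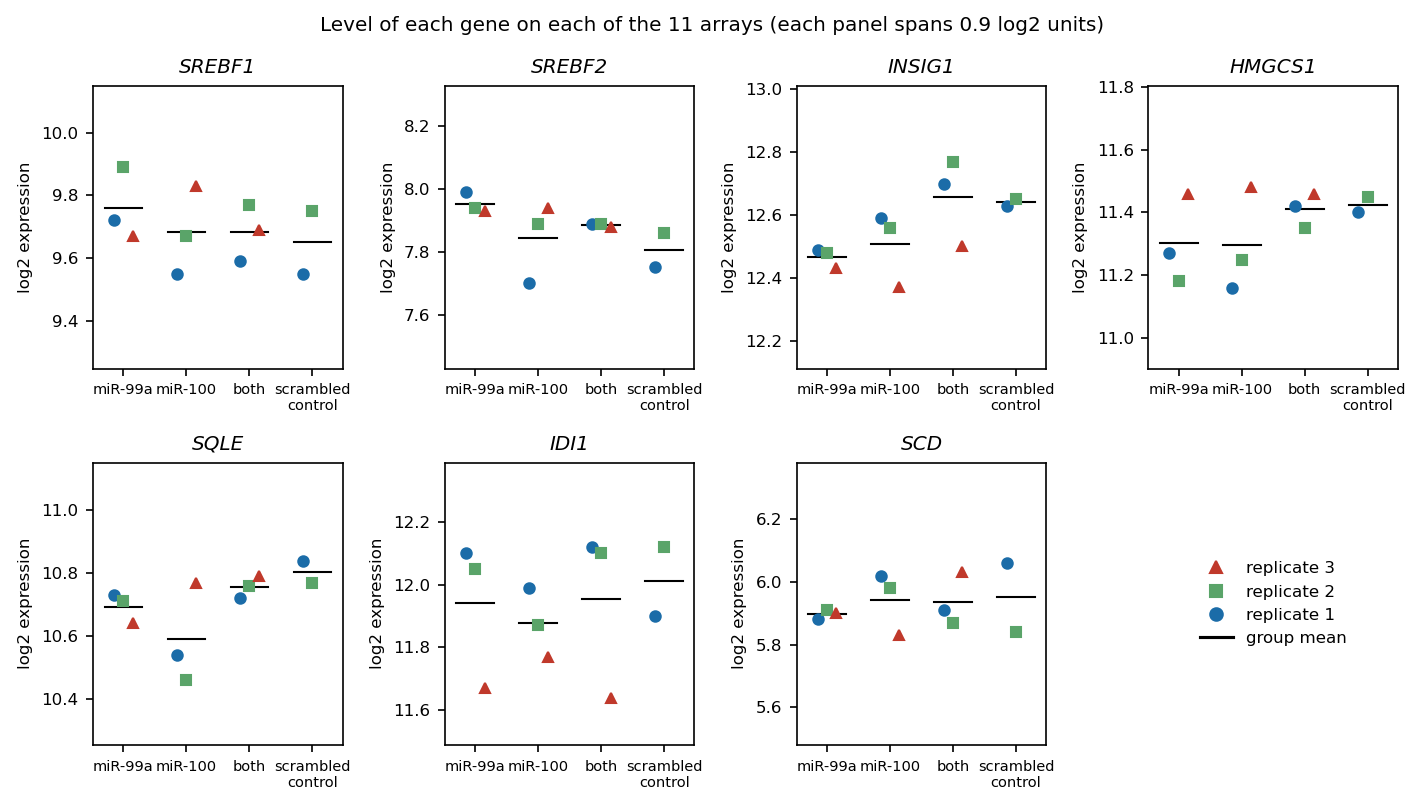
Log2 expression of the 7 measured genes on each of the 11 arrays, by group, with the group mean as a line and each panel spanning the same range of log2 units. Replicate 3 (triangles) is the lowest array of each treatment in IDI1 and INSIG1 and the highest in HMGCS1.

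Across the 3 treatments set against control, and for their mean, 0 of the 7 genes passed the test in each comparison, and the share of all genes called was 0.0% in each. At an unadjusted p under 0.05 the comparisons held 198 genes for miR-99a, 305 for miR-100, 724 for both and 489 for the mean, and SQLE with miR-100 was the only member among them. Of the 7 genes, 3 had miR-99a arrays that did not overlap control (15.4% of all genes), 1 had miR-100 arrays that did not (13.4%), and 1 had combination arrays that did not (20.5%). Over all treated arrays together none of the 7 was clear of control (2.91% of all genes). The members' median log2 difference in these comparisons was -0.07, -0.13 and -0.02, beside -0.006, -0.008 and -0.004 over all genes. The 1288 genes with a mean between 10 and 12, the range of HMGCS1, IDI1 and SQLE, had medians of -0.068, -0.079 and -0.066, and -0.016, -0.005 and -0.012 after quantile normalization. The 250 genes at 12 or more, the range of INSIG1, had -0.057, -0.037 and 0.083. In the order of group means, 3 of the 21 steps between neighbouring groups were larger than the larger SD: miR-99a over both for SREBF2 (0.07), control over miR-100 for INSIG1 (0.13), and both over miR-99a for SQLE (0.07).

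Leaving out replicate 3 brought no member past the test. With replicates 1 and 2 only, 0 of 7 genes were called for miR-99a, miR-100, both or their mean, beside 0.0%, 0.0%, 1.47% and 1.0% of all genes. For the mean of the treatments HMGCS1 had -0.16 ± 0.07 and SQLE -0.15 ± 0.07 (SE, adjusted p 0.218 and 0.232). IDI1 had 0.03 ± 0.07, SREBF1 0.05 ± 0.08, SREBF2 0.08 ± 0.07, INSIG1 -0.04 ± 0.06 and SCD -0.02 ± 0.07.

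**Figure D2:**
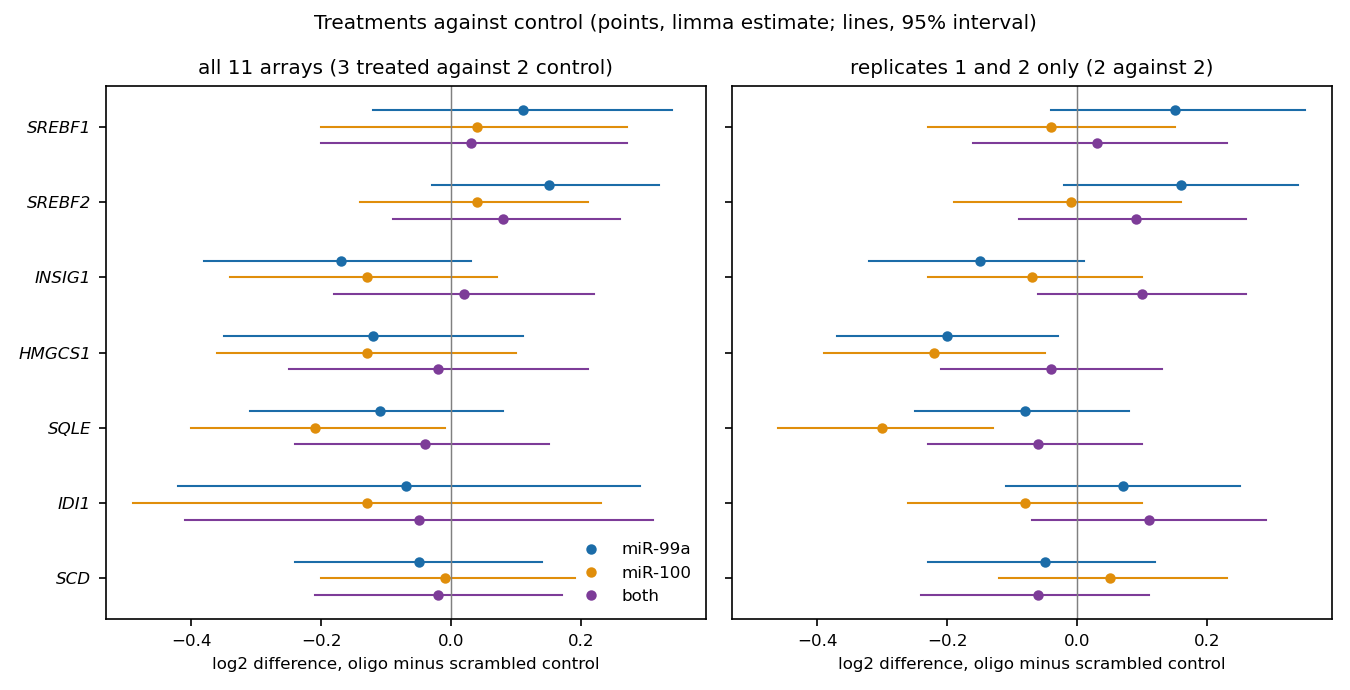
Log2 difference of each oligo treatment minus scrambled control for the 7 genes, over all 11 arrays (left) and over replicates 1 and 2 only (right). Points are limma estimates and lines 95% intervals. SQLE with miR-100 lies farthest from 0 in both panels, at -0.21 and -0.3.

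The oligos were also compared with each other. For miR-100 against miR-99a none of the 7 genes passed (0.0% of all genes), and their arrays all overlapped (4.66% of all genes did not), and the differences ran from -0.11 ± 0.07 for SREBF2 to 0.05 ± 0.08 for SCD (SE). The interval for SQLE was -0.27 to 0.08 and that for HMGCS1 -0.21 to 0.2, which do not show that the oligos act alike. When the combination was set against the single oligos, again none of the 7 passed (0.0% of all genes). The INSIG1 difference was the largest in this comparison, at 0.17 ± 0.07 (95% interval 0.01 to 0.33, unadjusted p 0.035, adjusted p 1.0 by limma), and 0.21 ± 0.07 over replicates 1 and 2 (adjusted p 0.496). The 250 genes at 12 or more, the range of INSIG1, had a median of 0.134 in this comparison, and 0.005 after quantile normalization. INSIG1 itself had 0.08 after quantile normalization (95% interval -0.04 to 0.2) and 0.09 with its probe sets averaged (-0.07 to 0.24). Its other probe sets had 0.12 and -0.04. No member's arrays were clear of the single oligos here (1.59% of all genes were), and for INSIG1 replicate 3 of the combination, at 12.5, lay among them.

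By replicate number, unlike by oligo, some members passed the test. In the 9 treated arrays IDI1 and INSIG1 were lower and HMGCS1 was higher in replicate 3 than in replicates 1 and 2, while SREBF1, SREBF2, SQLE and SCD did not pass. Thus 3 of 7 members (42.9%) were called, beside 29.3% of all genes (17.1% higher and 12.2% lower). The share of all genes, here and below, also counts genes dimmer than the median. When only the genes at or above the median level were fitted, 5641 of 9888 were called. All members but SCD lay above that level, so their count is not raised for genes of such brightness. IDI1 had 11.64 to 11.77 in replicate 3 and 11.87 to 12.12 in replicates 1 and 2, with no overlap, a log2 difference of -0.34 ± 0.07 (SE, 3 against 6 arrays) and an adjusted p of 5.43e-05 by limma. HMGCS1 had 11.46 to 11.48 in replicate 3 and 11.16 to 11.42 in replicates 1 and 2, also with no overlap, and a difference of 0.19 ± 0.07 (adjusted p 0.0195). INSIG1 had 12.37 to 12.5 in replicate 3 and 12.48 to 12.77 in replicates 1 and 2, and a difference of -0.17 ± 0.07 (adjusted p 0.0464). Arrays did not overlap between replicate 3 and the rest in 2 of 7 members and in 25.9% of all genes.

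These replicate differences were not equally firm. IDI1 kept its call whichever array was left out, between -0.44 and -0.28, but not when its probe sets were averaged (-0.09, adjusted p 0.266). HMGCS1 lost it without replicate 3 of miR-99a (adjusted p 0.123), replicate 1 of miR-100 (0.0606) or replicate 3 of miR-100 (0.135), and INSIG1 lost it without any of 7 arrays (0.0529 to 0.275). The count of called members was 1 without replicate 1 of miR-100, and 1 without its replicate 3. The deposited values also shift with brightness: in replicate 3 the median difference was 0.126 for genes at 8 to 10, -0.092 at 10 to 12 and -0.231 at 12 or more. After quantile normalization, which brought the last of these medians to -0.024, IDI1 had -0.16 (adjusted p 0.0182), INSIG1 0.04 (0.644), HMGCS1 0.34 (0.000115) and SQLE 0.19 (0.00656). INSIG1 thus turned its sign and SQLE passed in that setting, in which 31.1% of all genes were called. Control probe sets at the 3′ end of GAPDH exceeded those at its 5′ end by 0.56 to 0.71 in replicate 3, by 0.53 to 0.63 in replicates 1 and 2 and by 0.52 to 0.58 in control. For ACTB the excess was 2.52 to 2.85 in replicate 3, within the 2.45 to 3.17 of replicates 1 and 2, and 2.56 to 2.96 in control. The part of RNA quality in these shifts was not tested.

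The shift of replicate 3 was also read in each treatment. Among miR-99a, miR-100 and combination arrays, in that order, it was -0.4, -0.16 and -0.47 for IDI1, and 0.23, 0.27 and 0.08 for HMGCS1. For INSIG1 it was -0.06, -0.2 and -0.24. SQLE had -0.08, 0.27 and 0.05, SREBF1 had -0.13, 0.22 and 0.0, and SREBF2 had -0.04, 0.15 and -0.02. The shift with miR-100 stood above the others for these genes, and for IDI1 and HMGCS1 as well. It did not for INSIG1 or for SCD, which had 0.01, -0.17 and 0.14. Listed genes that are not members showed it too, such as ACACA (0.33, 0.49 and 0.28), though not all, as with AKT1S1 (-0.13, -0.21 and -0.1). A test of the difference in shift between the treatments called 0 of 19775 genes by limma (1704 at an unadjusted p under 0.05), and the members' adjusted p ran from 0.566 to 0.741.

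**Figure D3:**
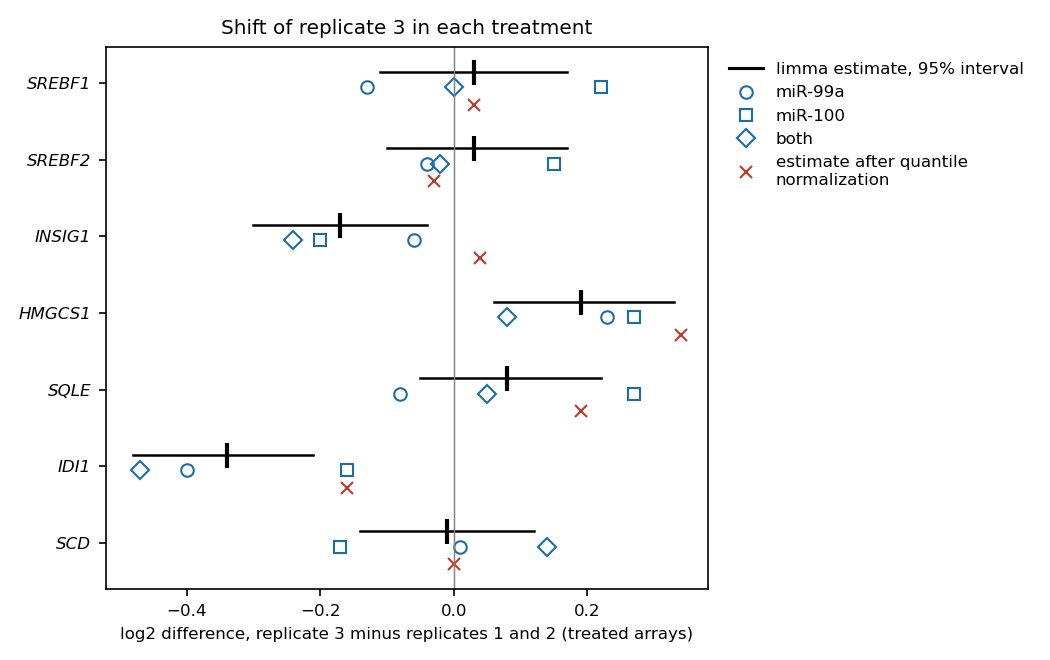
Log2 difference of replicate 3 minus replicates 1 and 2 in the 9 treated arrays, with the limma estimate and its 95% interval (bar), the shift within each treatment (open symbols) and the estimate after quantile normalization (cross). INSIG1 is at -0.17 as deposited and 0.04 after quantile normalization, and HMGCS1 lies above 0 in both.

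The probe sets of a gene did not always tell the same story. IDI1 had a second bright probe set, 204615_x_at, with -0.34 in replicate 3 (adjusted p 0.000159 over all probe sets), but a dim one, 233014_at, was higher in replicate 3, at 6.65 to 6.66 against 6.03 to 6.47 in replicates 1 and 2 (0.33, adjusted p 0.000235), and 242065_x_at had 0.0. In the maker's naming the ending _x_at marks probe sets whose probes may also match other transcripts, so the IDI1 level is uncertain in that respect. SREBF2 was not called on its brightest probe set, while 242748_at, of about the same brightness, had 7.93 to 8.05 in replicate 3 and 7.45 to 7.64 in replicates 1 and 2 (0.39, adjusted p 8.49e-06). The second HMGCS1 probe set had 0.19 (adjusted p 0.0407), and the INSIG1 probe sets had -0.18 and -0.16 (0.058 and 0.0973). Of the other SQLE probe sets, 213577_at had 0.25 (adjusted p 0.00761).

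**Figure D4:**
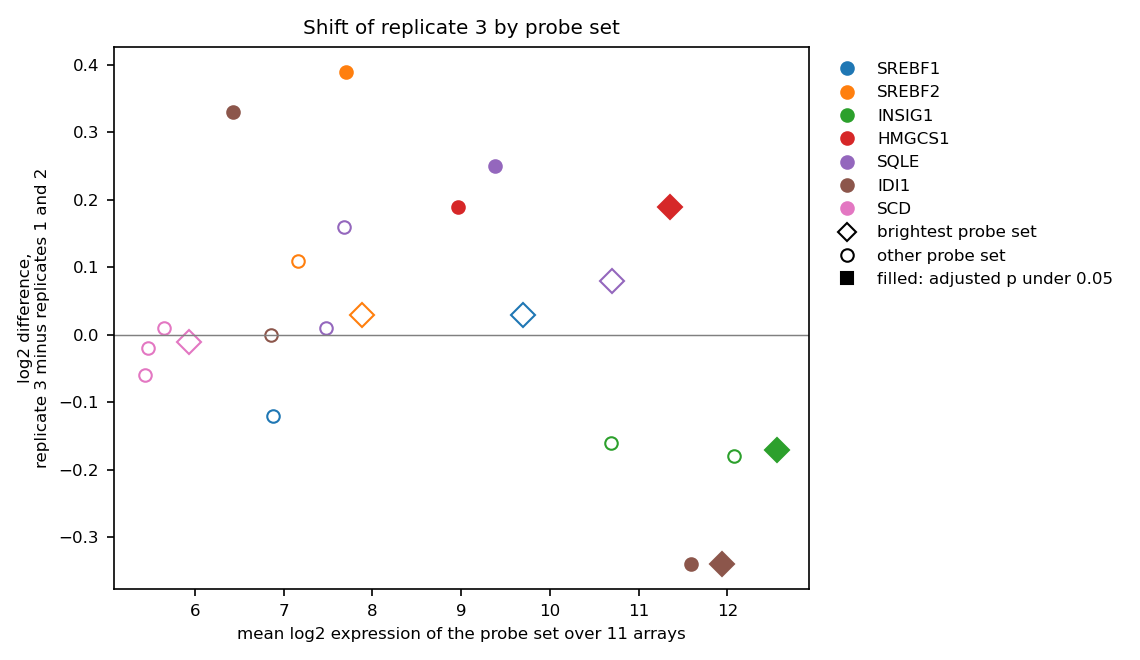
Log2 difference of replicate 3 minus replicates 1 and 2 for every probe set of the 7 genes, against the mean log2 expression of the probe set. Diamonds mark the brightest probe set of a gene and filled symbols an adjusted p under 0.05. The IDI1 probe sets lie at -0.34, -0.34, 0.0 and 0.33.

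The promoters of SREBF2, INSIG1, HMGCS1 and IDI1 are shown for the elements through which SREBPs and their partner NF-Y are known to act. They are the regulator, the feedback gene and 2 members whose brightest probe sets moved in opposite directions in replicate 3. RefSeq windows (GRCh38.p14, 250 bases before to 50 after a start site) were read for 6 members, with 9 windows in all. Windows of SQLE and FDFT1 were not read, so the member counts below do not cover these genes. The member windows were filtered by chromosome, whereas the count over all promoters was not. The 250 bases before the start are printed, 5′ to 3′ on the gene's strand. Capitals mark TCACNCCAC, a sterol regulatory element of SREBP targets; ATCACGTGA, which contains the E-box CACGTG; and CCAAT, the NF-Y box, each on either strand. SREBF2 spans chr22:41832855-41833104 (plus strand), INSIG1 chr7:155297628-155297877 (plus), HMGCS1 chr5:43313413-43313662 (minus) and IDI1 chr10:1049120-1049369 (minus).
SREBF2 promoter: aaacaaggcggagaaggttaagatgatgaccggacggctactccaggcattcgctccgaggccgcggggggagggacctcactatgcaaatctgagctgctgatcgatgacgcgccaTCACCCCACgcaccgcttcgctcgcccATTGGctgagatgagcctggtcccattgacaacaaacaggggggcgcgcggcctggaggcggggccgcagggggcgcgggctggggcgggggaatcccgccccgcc
INSIG1 promoter: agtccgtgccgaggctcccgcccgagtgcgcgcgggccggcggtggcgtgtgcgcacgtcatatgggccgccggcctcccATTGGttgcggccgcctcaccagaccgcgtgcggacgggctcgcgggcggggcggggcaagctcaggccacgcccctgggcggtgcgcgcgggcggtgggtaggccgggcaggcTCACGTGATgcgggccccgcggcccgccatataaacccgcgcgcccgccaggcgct
HMGCS1 promoter: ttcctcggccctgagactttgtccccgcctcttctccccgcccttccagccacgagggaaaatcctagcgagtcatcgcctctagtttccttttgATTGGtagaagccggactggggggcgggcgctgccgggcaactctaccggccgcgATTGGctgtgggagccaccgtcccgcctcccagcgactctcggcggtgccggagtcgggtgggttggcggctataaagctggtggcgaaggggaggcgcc
IDI1 promoter: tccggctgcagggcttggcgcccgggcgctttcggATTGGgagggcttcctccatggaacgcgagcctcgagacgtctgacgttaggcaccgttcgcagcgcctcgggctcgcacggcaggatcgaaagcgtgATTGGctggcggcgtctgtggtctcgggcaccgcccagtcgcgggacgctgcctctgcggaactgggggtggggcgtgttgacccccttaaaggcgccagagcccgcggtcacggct
TCACNCCAC was in 1 of the 9 windows, that of SREBF2, at -133, and in 1.13% of 35116 promoters. ATCACGTGA was in 1 of the 9, that of INSIG1, at -56 on the other strand, and in 0.268% of promoters; the CACGTG within it was in 7.26%. CCAAT was in 6 of the 9 windows and in 34.6% of promoters: the single windows of SREBF2, INSIG1 and SCD, 1 of the 2 of HMGCS1 and 2 of the 3 of IDI1. For HMGCS1 and IDI1 a window that holds it is the one printed. The Sp1 element GGGCGG, which does not overlap these, was in all 9 windows and in 45.0% of promoters. These matches describe the letters in the windows, and they neither show a bound site nor sort HMGCS1 from IDI1.

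The wider sterol synthesis pathway was set beside the members, from a list of 24 genes of which 20 were measured. Against control none of the 20 passed in any treatment or in their mean. For the mean of the treatments 15 of 20 had a negative difference, with a median of -0.06 beside -0.005 over all genes and -0.071 over genes with a mean of 10 to 12. The count of negative differences was 11 of 20 after quantile normalization, with a replicate block, and over replicates 1 and 2 only. The smallest p belonged to STARD4, a sterol carrier protein induced by SREBPs, at 9.13 in both control arrays and with a difference of -0.17 ± 0.07 (SE, unadjusted p 0.0347, adjusted p 1.0), followed by SQLE.

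In replicate 3, against replicates 1 and 2, 12 of the 20 sterol genes passed, 6 higher and 6 lower (60.0%, beside 29.3% of all genes). Fitted alone, the genes at or above the median level had 5641 of 9888 called, so such a share was common among brighter genes. The 3 largest differences, all lower in replicate 3, were those of SC5D, MSMO1 and ERG28. SC5D, the sterol desaturase near the end of cholesterol synthesis, had 9.27 to 9.39 in replicate 3 and 9.9 to 10.15 in replicates 1 and 2, a difference of -0.73 ± 0.07 (adjusted p 3.29e-12). MSMO1, which removes methyl groups from lanosterol derivatives, had 11.36 to 11.49 in replicate 3 and 11.95 to 12.23 in replicates 1 and 2 (-0.63, adjusted p 1.88e-10), and ERG28, a scaffold of the demethylation complex in yeast, had 9.41 to 9.56 in replicate 3 and 9.8 to 10.14 in replicates 1 and 2 (-0.49, adjusted p 1.14e-07). For each of these the range of the control arrays overlapped that of replicates 1 and 2. In the other direction, and chosen after their values were seen, ACAT2, the acetyl-CoA thiolase, had a difference of 0.28, FDPS, the farnesyl diphosphate synthase, 0.27, and LSS, the lanosterol synthase, 0.24 (adjusted p 0.00116, 0.00154 and 0.00439). On their brightest probe sets IDI1 and FDPS, which act in consecutive steps, thus moved in opposite directions. With its probe sets averaged, however, IDI1 had -0.09 (adjusted p 0.266 by limma). After quantile normalization 9 were higher and 7 lower (80.0%, beside 31.1% of all genes), with SC5D at -0.75, MSMO1 at -0.45 and ERG28 at -0.5.

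**Figure D5:**
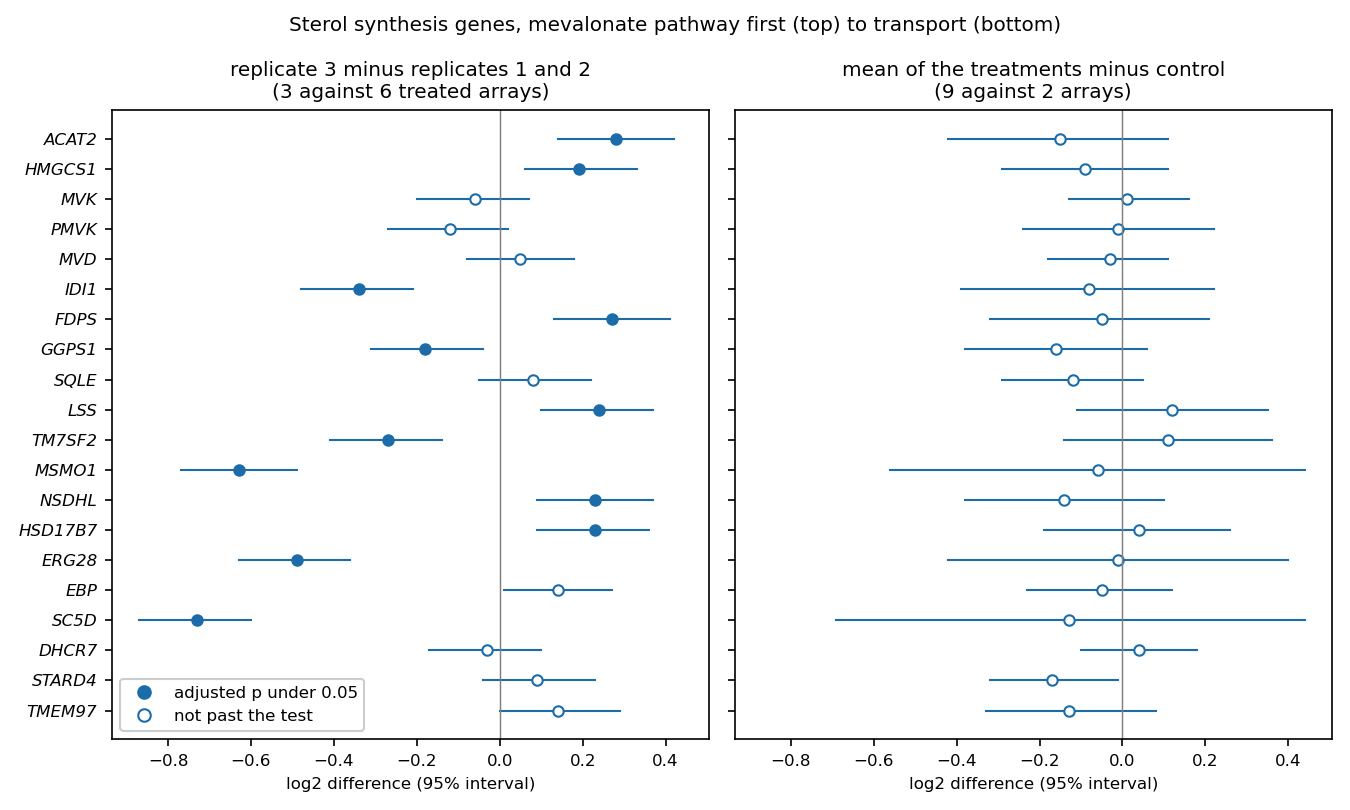
Log2 differences with 95% intervals for the 20 measured sterol synthesis genes, ordered from the mevalonate pathway to sterol transport. Left, replicate 3 minus replicates 1 and 2, where 6 genes are higher and 6 lower at an adjusted p under 0.05 (filled); right, the mean of the treatments minus control, where none passes.

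The genes that move and cleave SREBPs did not pass against control over all arrays either. Of 12 listed genes 11 were measured, and 0 passed against control. MBTPS2, the protease of the Golgi that makes the final cut, had -0.24 ± 0.09 for the mean of the treatments (unadjusted p 0.0195), with 8.24 to 8.62 in treated arrays, all below 8.68 and 8.69 in control. SEC23A, a coat protein of the vesicles that carry SCAP to the Golgi, had -0.2 ± 0.09 (unadjusted p 0.0449). Both had an adjusted p of 1.0 by limma over all arrays. Over replicates 1 and 2 SEC23A passed with the combination, at -0.34 ± 0.08 (adjusted p 0.0393; 1.47% of all genes). In replicate 3 this list had 2 genes higher and 3 lower (45.5%, beside 29.3% of all genes), and after quantile normalization 2 higher and 2 lower (36.4%, beside 31.1%). RNF139, a ubiquitin ligase of the endoplasmic reticulum that binds the SREBP and SCAP complex, had 9.09 to 9.29 in replicate 3 and 9.87 to 10.14 in replicates 1 and 2 (-0.83 ± 0.07, adjusted p 3.92e-13), and INSIG2, the second INSIG protein, had 7.94 to 8.25 in replicate 3 and 8.34 to 8.57 in replicates 1 and 2 (-0.37, adjusted p 2.31e-05). FBXW7, which marks nuclear SREBPs for destruction, had 0.19 and MBTPS1, the protease of the first cut, 0.18 (adjusted p 0.0208 and 0.0476). After quantile normalization FBXW7 had 0.22 (adjusted p 0.00462), and MBTPS1, at 0.12, no longer passed (0.109).

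Among 14 measured of 16 fatty acid synthesis genes, 0 passed against control over all arrays, and the median for the mean of the treatments was 0.04. The smallest p belonged to ME1, the malic enzyme that supplies NADPH, at 0.13 ± 0.06 (unadjusted p 0.0547), but its mean of 5.43 is dimmer than that of SCD and no difference could be read there. It was followed by FASN, the fatty acid synthase, at 0.11 ± 0.07 (0.139). ELOVL6, which elongates palmitate, passed over replicates 1 and 2, with -0.34 ± 0.08 for the combination (adjusted p 0.0328) and -0.28 ± 0.07 for the mean of the treatments (adjusted p 0.0464; 1.0% of all genes). It had 6.79 to 6.95 in replicates 1 and 2 of the treatments and 7.13 to 7.18 in control, but 7.14 to 7.27 in replicate 3. Against replicates 1 and 2, replicate 3 had 3 of the 14 higher and 2 lower (35.7%, near the 29.3% of all genes): ELOVL6 (0.33), ACACA, the acetyl-CoA carboxylase (0.36), and LPIN1 (0.27) were higher, and MID1IP1, which activates that carboxylase (-0.61), and SLC25A1, the mitochondrial citrate carrier (-0.38), were lower. After quantile normalization 5 of the 14 were higher and 3 lower (57.1%, beside 31.1% of all genes).

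All 12 listed genes that link mTORC1 to SREBPs were measured, and 0 passed against control over all arrays. AKT1S1, an inhibitory partner of mTORC1, had the smallest p, with 6.07 to 6.37 in treated arrays, 5.98 and 6.04 in control, and a difference of 0.19 ± 0.08 for the mean of the treatments (unadjusted p 0.0297), followed by MLST8, a core subunit of the complex, at 0.13. AKT1S1 was dim, with a mean of 6.16 against 6.4 for the median gene. EIF4EBP1, the translation repressor that mTORC1 phosphorylates, passed for the mean of the treatments over replicates 1 and 2, at 0.33 ± 0.08 (adjusted p 0.0485; 1.0% of all genes). It had 10.24 to 10.44 in those arrays and 9.82 to 10.18 in control, but 9.5 to 9.72 in replicate 3. In replicate 3, against replicates 1 and 2, 3 of the 12 were higher and 3 lower (50.0%, beside 29.3% of all genes). MTOR had 7.17 to 7.36 in replicate 3 and 6.86 to 6.92 in replicates 1 and 2 (0.38, adjusted p 7.84e-06). Its control arrays had 6.99 to 7.07, above the treated arrays of replicates 1 and 2 and below those of replicate 3. Against control MTOR had -0.02 ± 0.14 for the mean of the treatments over all arrays (adjusted p 1.0) and -0.14 ± 0.06 over replicates 1 and 2 (0.254), so it did not pass in either. Of the other genes higher in replicate 3, TSC1, which restrains mTORC1, had 0.32, and LPIN1, the lipin through which mTORC1 acts on SREBPs, had 0.27. EIF4EBP1 (-0.7), RHEB, the GTPase that activates mTORC1 (-0.58), and RPS6KB1, the S6 kinase (-0.27), were lower. Each of these 6 genes kept its direction and its call after quantile normalization. In that setting 3 of the 12 were higher and 5 lower (66.7%, beside 31.1% of all genes).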

How the data were processed

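RNA of 11 samples was labelled with Affymetrix one-cycle kits and hybridised to expression arrays, per the labels' protocols. The authors deposited log2 values, as their span of 4.4 to 14.84 shows, and array medians lay between 5.95 and 5.984. How they were summarised and scaled is not given in the sources used here, and quantile normalization was tried for that reason. The number of arrays limits the precision.

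Of 54675 probe sets, 41091 were listed with a single gene, of which 41037 matched RefSeq (GRCh38.p14). Each of 19775 genes was read from the probe set that was brightest on average. Group means were fitted over all 11 arrays with limma 3.58.1 (R 4.3.3), and p-values, all 2-sided, were adjusted by Benjamini-Hochberg over all genes, with calls at an adjusted p under 0.05. Replicate 3 was compared with replicates 1 and 2 in the 9 treated arrays with treatment as a term. The fit was tested on simulated arrays with independent noise and changes of 1 or 2 log2 units. That test does not cover differences as small as those of the members.

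The members and gene lists were chosen with earlier results of these data known. The members are named throughout. From each list the called genes are named (up to 6, otherwise the 4 with the largest difference), or the 2 with the smallest p for the mean of the treatments, and so are the 5 genes outside the lists that follow the members most closely. Arrays of different treatments with the same replicate number, as the labels give it, correlated after removing group means in 9 of 9 pairs (0.168 to 0.816, above 0.1). Pairs with different numbers were not compared, and replicate 3 stood apart in every treatment. Whether the numbers pair the treatments was therefore not settled. Control and treated arrays of the same number correlated above 0.1 in 3 of 6 pairs (-0.152 to 0.438). Removing the mean of only 2 control arrays makes their values exact opposites, so this check cannot exclude pairing. Control and treated arrays were fitted as unpaired, with a replicate block as an alternative. Alternatives were quantile normalization, a replicate block, replicate 3 as a term, replicates 1 and 2 only, genes at or above the median level, the mean of a gene's probe sets, all probe sets, and leaving out each array.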

Additional observations from a re-analysis of the deposited data

How the results depend on the processing

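Against control, and between oligos, 0 members were called in every setting run, with the range 0 to 0 when each array was left out. Fitted with a replicate block, 0 members were called as well, and the counts over all genes were 5 for miR-99a, 7 for miR-100, 863 for both and 507 for the mean of the treatments, against 0 in each without it; with replicate 3 as a term they were 0, 0, 443 and 24, and with replicates 1 and 2 only 0, 0, 290 and 198. The block left 1 gene for miR-100 against miR-99a and 1 for the combination against the single oligos, and changed no member's call. With it ELOVL6 (-0.34, adjusted p 0.0117), EIF4EBP1 (0.35, 0.0155), SEC23A (-0.38, 0.0068), FBXW7 (-0.27, 0.0476) and ACAT2 (-0.29, 0.0403) passed for the combination, as did the B-cell precursor markers MME (-0.3, 0.0331) and RAG2 (-0.29, 0.0399), and ELOVL6 (-0.28, 0.029), EIF4EBP1 (0.33, 0.0196) and CD79A (0.29, 0.0396) passed for the mean of the treatments. Whether the numbers pair control with treated arrays was not settled. For replicate 3 against replicates 1 and 2, the count of called members ranged from 1 to 3 as each array was left out. INSIG1 reversed to 0.04 after quantile normalization, and IDI1 had 0.0 on probe set 242065_x_at and 0.33 on 233014_at, both chosen after seeing the data; with probe sets averaged IDI1 had -0.09 (adjusted p 0.266) and SREBF2 0.18 (0.0119). The causes were not tested. Among 854 alternative member values, 73 changed sign without being called. With 2 control arrays, intervals near 0.2 on either side were usual, and SCD is too dim to be read.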

Other observations

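Genes of cholesterol uptake, storage and export, 12 measured of 15 listed, did not pass against control over all arrays. LIPA, the lysosomal lipase that frees cholesterol from its esters, had 8.8 to 9.12 in treated arrays and 9.17 and 9.2 in control, with -0.2 ± 0.09 for the mean of the treatments (SE, unadjusted p 0.0426, adjusted p 1.0 by limma), and SCARB1, a lipoprotein receptor, had 0.09. In replicate 3 the partners that export cholesterol from lysosomes moved in opposite directions: NPC1 had 8.21 to 8.36 in replicate 3 and 7.66 to 8.09 in replicates 1 and 2 (0.36, adjusted p 9.73e-05), and NPC2 had 10.2 to 10.33 in replicate 3 and 10.52 to 10.85 in replicates 1 and 2 (-0.41, adjusted p 4.57e-06). They made 2 of 12 genes (16.7%), beside 29.3% of all genes.

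Among the 11 measured B-cell precursor markers, MME (0.27) and RAG1 (0.18) were higher and CD79A (-0.56) and IGLL1 (-0.18) lower in replicate 3 (36.4%, near the 29.3% of all genes), and after quantile normalization 6 were higher and 1, CD79A, lower (63.6%, beside 31.1%). Against control 0 of the 11 passed over all arrays, where RAG2 had -0.25 ± 0.08 with the combination (SE, unadjusted p 0.0137, adjusted p 1.0 by limma). Of hepatocyte (3), fibroblast and epithelial (6), platelet and erythroid (3), myeloid (6) and T or NK (6) markers, 0 were called by limma in any comparison, beside 29.3% of all genes in replicate 3 against replicates 1 and 2. In that comparison 1 T and NK gene and 1 hepatocyte gene had an unadjusted p under 0.05. So did 1 fibroblast or epithelial gene for miR-100 against miR-99a, and 1 hepatocyte gene for the combination against the single oligos. Against control over all arrays none did.

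The members' mean standardized level was lowest in miR-100 replicate 1 (-0.7) and miR-100 replicate 2 (-0.41) and highest in replicate 2 of the combination (0.46), with control at 0.09 and 0.33. The genes outside the lists that followed it most closely over the 11 arrays, by Pearson correlation given as a description, were DDRGK1 (0.869), FTL, the ferritin light chain (0.857), PCMTD1 (0.854), TSPAN14 (0.828) and ARIH1, a ubiquitin ligase (0.827). Over the 8 arrays of replicates 1 and 2 they had 0.86, 0.88, 0.919, 0.825 and 0.907. The arrays share groups and a scaling step, and these genes were picked for the likeness.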
